A study of Homo sapiens with 2 samples.

Results

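The genes described here encode the α chains of the collagens. They were taken as every protein-coding row of the deposited table whose symbol is COL, a number, A and a number, which gave 44 genes of 58735. RNA came from SF-539, a human GBM cell line grown in DMEM with serum at passages 15 to 18. The cells had been infected with lentivirus of the pGIPZ type, carrying the control construct pGIPZ-CTRL (shControl) or an FKBP9 shRNA (shFKBP9), and both populations were selected with puromycin. There was 1 library per condition, so no difference below has a replicate check, and the shRNA, the selected clone and the library cannot be told apart. The labels name stable clones but give neither their number nor which of the FKBP9 shRNAs was sequenced.

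Collagens are the main structural proteins of the extracellular matrix. Each chain carries repeats of Gly-X-Y, in which glycine recurs at a fixed spacing, and chains wind around each other into a triple helix inside the ER. There, prolines are hydroxylated and prolyl isomerases, among them members of the FKBP family, help the helix to close before the trimer is exported. Fibrillar collagens form the cross-banded fibres of connective tissue, type IV chains form the sheet of basement membranes, and type VI chains form beaded filaments around cells. In normal brain these proteins are largely confined to vessels and meninges, while glioma cells of mesenchymal character can make fibrillar collagen in culture.

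The repeat can be read in the coding exons of the abundant members. The 3 exons below were chosen because they show it in a fibrillar, a beaded filament and an anchoring fibril chain. They are the first coding exons of 54, 63 and 36 bases in the canonical transcripts of GENCODE release 44 that start in frame with a glycine codon at positions 1, 4, 7 and so on. They are written 5′ to 3′ on the coding strand, with each codon for glycine in capitals. The exon of COL5A1 is exon 15 (chr9:134753850-134753903 of hg38, plus strand), that of COL6A2 exon 12 (chr21:46117874-46117936, plus strand) and that of COL7A1 exon 34 (chr3:48584910-48584945, minus strand).
COL5A1: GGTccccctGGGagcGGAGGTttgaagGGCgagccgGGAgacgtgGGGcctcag
COL6A2: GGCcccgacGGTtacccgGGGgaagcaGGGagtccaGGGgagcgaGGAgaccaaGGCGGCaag
COL7A1: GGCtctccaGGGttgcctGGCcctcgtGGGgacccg
The COL5A1 exon holds 7 glycine codons among 18, the COL6A2 exon 8 among 21 and the COL7A1 exon 4 among 12. Exons of 54 bases are a known unit of the fibrillar genes. They made up 41.2% to 55.0% of the coding exons in the 11 fibrillar genes, with a median of 46.3%, against medians of 31.2% in the 10 FACIT genes (up to 43.8%, inside the fibrillar range), 4.26% in the 9 basement membrane zone genes and 7.50% in the 5 genes of type VI.

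The values are FPKM, fragment numbers scaled to gene length and to a library size. Multiplied by the gene length in the file, all of them were whole multiples of 1 step (100% of values above 0 in each library), which gave 18116873 fragments on genes in shControl and 17158514 in shFKBP9. The library sizes behind the values, 18106502 in shControl and 17168341 in shFKBP9, were close to these totals but not equal to them. Whether they include a normalization between the libraries was not tested. FKBP9, the target, had 4659 fragments (49.8 FPKM) in shControl and 415 (4.68 FPKM) in shFKBP9. A log2 ratio sets the FPKM of shFKBP9 over that of shControl after adding 0.1 to each, unless a ratio with nothing added is named. Each interval is the exact 95% Clopper-Pearson one of the fragment numbers, with nothing added. They cover counting error only. Where a pair of values is given, that of shControl comes first. Of the markers of glioma and neural cells, VIM (277 and 295 FPKM), CD44, EGFR and NES were above 1 FPKM, while GFAP had 43 and 29 fragments, OLIG2 48 and 41, SOX2 4 and 7 and S100B 0 and 1. The labels call the cells epithelial glioma cells, and of 5 epithelial markers 0 reached 1 FPKM.

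Collagen genes held 425900 fragments in shControl, 2.35% of the library, and 430564 in shFKBP9, 2.51%. Of the 44 genes, 17 reached 1 FPKM in at least 1 library and 6 more had at least 50 fragments in the libraries together. Another 16 genes had between 1 and 22 fragments, and 5 had none in either library. Type I and type VI chains made up most of the total. COL1A1, COL1A2, COL6A2, COL6A1 and COL6A3 held 86.8% of collagen fragments in both libraries. By class, fibrillar chains made up 59.7% of the summed collagen FPKM in shControl and 58.6% in shFKBP9, and beaded filament chains 35.9% and 36.9%. Basement membrane zone chains made up 2.40% and 2.47%.

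**Figure D1:**
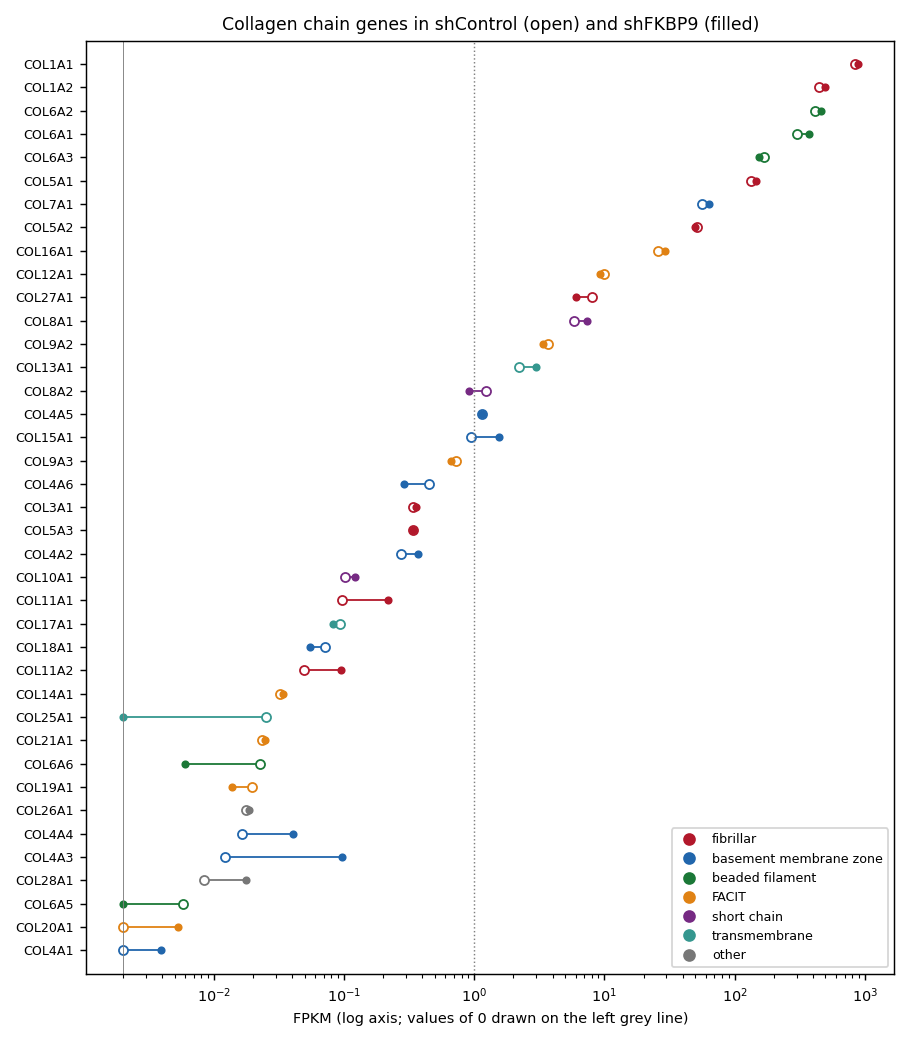
FPKM of the 39 collagen genes with a fragment in either library, on a log axis, in shControl (open circles) and shFKBP9 (filled circles), coloured by structural class; the dotted line marks 1 FPKM and values of 0 lie on the grey line at the left. COL1A1 is highest in both libraries at 837 and 884 FPKM, and the open and filled circles of the abundant genes lie close together.

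The summed FPKM of the 44 genes was 2478 in shControl and 2699 in shFKBP9, a ratio of 1.09 (log2 0.12). None of the 17 genes above the minimum was past 2-fold in either direction (0 higher and 0 lower), while 4.21% of the 12741 genes at that minimum were (2.02% higher and 2.19% lower), and 0.406% of the 10346 protein-coding ones. The log2 ratio was above 0 for 10 of the 17 and below 0 for 7, with a median of 0.13. The median over all 12741 genes was -0.02, with 5951 above 0 and 6789 below, and the middle 50% lay between -0.17 and 0.14. The counting interval lay above a ratio of 1 for 10 of the 17 and below it for 5, against 37.9% of all genes in either direction (17.2% above and 20.8% below). With median ratio scaling the number below was 2 in place of 5, with those of COL5A2, COL12A1 and COL8A2 no longer excluding a ratio of 1, and the number above was 10. That share follows the number of fragments. It was 53.5% among genes with at least 1000 fragments, where it was 12 of 12 collagen genes, and 77% among genes with at least 10000, where it was 8 of 8. The intervals therefore resolve differences of a few percent between these libraries that have no replicate to set them against.

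**Figure D2:**
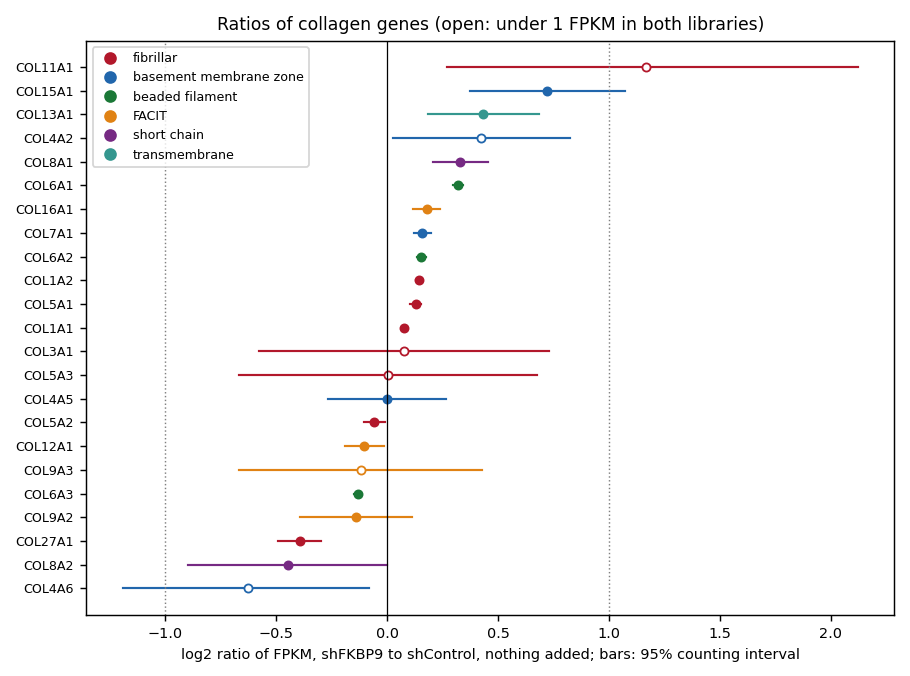
Log2 ratio of FPKM in shFKBP9 to shControl, with nothing added, for the 17 collagen genes at or above 1 FPKM (filled) and the 6 others with at least 50 fragments (open); bars are exact 95% counting intervals and dotted lines mark 2-fold. The ratios at or above 1 FPKM run from COL8A2 at -0.45 to COL15A1 at 0.72, all inside the dotted lines.

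Another measure of spread is that of all genes with a like number of fragments, since it holds every difference between the libraries and not the counting error alone. Of the 30 collagen genes with at least 10 fragments and a fragment in each library, 25 had a ratio inside the middle 95% of all genes in their range of fragments, 4 lay above it and 1 below. The 4 above were COL6A1, COL15A1, COL11A1 and COL4A3, and the 1 below was COL27A1. COL4A3 had 2 fragments in shControl, within the 3 that a count of 0 allows, and 15 in shFKBP9, so it met the minimum of 10 only through the library where it was high. COL6A1, at 0.32 with nothing added, and COL15A1, at 0.72, passed the upper limits of 0.31 and 0.71 only narrowly.

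**Figure D3:**
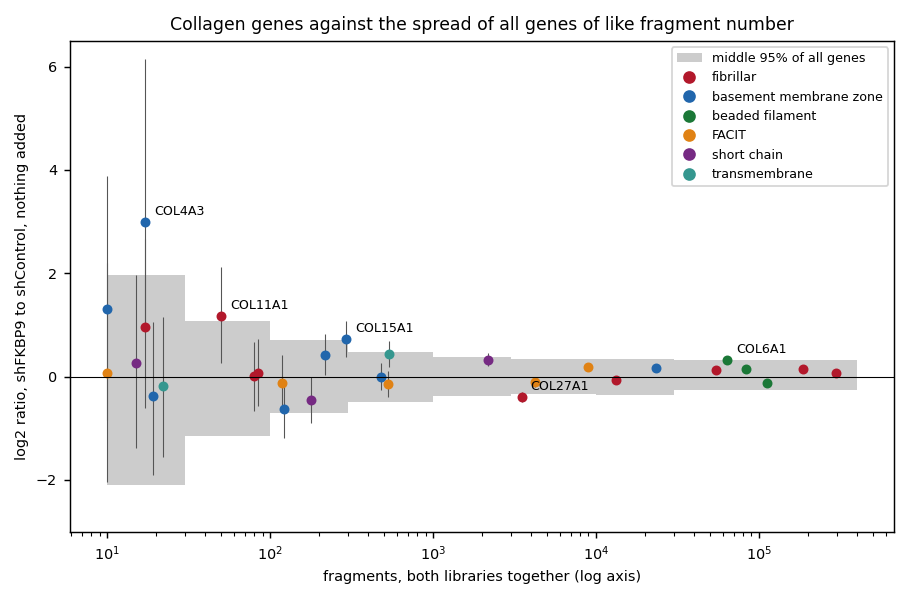
Log2 ratio of FPKM with nothing added against the fragments in both libraries together (log axis) for 30 collagen genes, with exact 95% counting intervals; grey steps are the middle 95% of all genes with a like number of fragments. The 5 named genes lie outside the grey steps and 25 lie inside.

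Among the fibrillar collagens, 5 of 11 genes reached 1 FPKM, 3 with a ratio above 0 and 2 below. COL1A1, the major chain of type I collagen of skin, bone and tendon (ENSG00000108821, chromosome 17, 50183289 to 50201632 of hg38), was at 837 FPKM in shControl, from 148817 fragments, and at 884 in shFKBP9, from 148937. Its log2 ratio was 0.08 (95% interval 0.07 to 0.09). Its level was the 26th highest of all genes in shControl and the 28th in shFKBP9, so its place hardly differed between the libraries. COL1A2, the partner chain (ENSG00000164692, chromosome 7, 94394561 to 94431232), had 90612 and 94985 fragments, 449 and 496 FPKM, with a log2 ratio of 0.14 (0.13 to 0.16). Both type I chains were thus slightly higher in the shFKBP9 library, and both lay inside the spread of genes of like fragment number.

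Type V collagen assembles with type I and sets the diameter of its fibrils. COL5A1 (chromosome 9, 134641774 to 134844843) had 133 FPKM in shControl and 145 in shFKBP9, with a log2 ratio of 0.13 (0.10 to 0.15). COL5A2 (chromosome 2, 189031896 to 189225312) had 51.6 and 49.6 FPKM, with a log2 ratio of -0.06 (-0.11 to -0.01). With median ratio scaling the interval of COL5A2 included a ratio of 1. The remaining chain, COL5A3, was under 1 FPKM in both libraries, with 41 and 39 fragments.

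COL27A1, a fibrillar chain known from cartilage (ENSG00000196739, chromosome 9, 114155560 to 114312511), was at 8.01 FPKM in shControl (2029 fragments) and at 6.09 in shFKBP9 (1463). Its log2 ratio of -0.39 (-0.49 to -0.30) was at percentile 1.63 among the 6392 genes with at least 1000 fragments, where the middle 95% ran from -0.35 to 0.36. It was the lowest ratio among the 12 collagen genes with that many fragments. SOX9, a transcription factor of cartilage genes, had 321 and 198 fragments (log2 ratio -0.60, interval -0.88 to -0.36). The other 2 markers of cartilage, ACAN and COL2A1, had no fragment in either library. Whether SOX9 bears on COL27A1 was not tested.

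The remaining fibrillar genes were near or at 0. COL3A1, which in fibroblasts usually accompanies type I, had 42 fragments in each library, 0.34 and 0.36 FPKM, with an interval from -0.58 to 0.73. Its level was thus far below that of COL1A1 in both libraries. COL11A1 had 16 and 34 (log2 ratio 0.69, or 1.16 with nothing added, interval 0.27 to 2.12), and COL11A2 had 6 and 11. COL2A1, the chain of cartilage fibrils, and COL24A1 had none. A count of 0 allows up to 3 fragments, which for COL2A1 is 0.0249 FPKM in shControl and 0.0262 in shFKBP9.

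Of the 9 basement membrane zone genes, 3 reached 1 FPKM, of which 1, COL7A1, made up 95.1% of the summed FPKM of the class in shControl. COL7A1, the chain of the anchoring fibrils below the epidermis (ENSG00000114270, chromosome 3, 48564073 to 48595267), had 11340 and 12001 fragments, 56.6 and 63.1 FPKM. Its log2 ratio was 0.16 (0.12 to 0.20), inside the spread of genes of like fragment number. The markers of epithelial cells, in which this collagen is also known, held 29 fragments in shControl and 61 in shFKBP9 over all 5 genes (0.523 and 1.27 FPKM summed), with CDH1 at 0 and 1 and KRT14 at 1 and 24. Their part in the value of COL7A1 was not tested.

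COL15A1, a multiplexin of vessel and muscle basement membranes (ENSG00000204291, chromosome 9, 98943179 to 99070792), was at 0.946 FPKM in shControl (114 fragments) and at 1.56 in shFKBP9 (178). Its log2 ratio of 0.66 (0.37 to 1.07) was the highest among the 17 genes and at percentile 96.5 of all 12741. It passed the minimum of 1 FPKM only in the shFKBP9 library. COL18A1, the related multiplexin that gives rise to endostatin, had 11 and 8 fragments, so no difference was detectable at this depth.

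Type IV collagen, the network that defines basement membranes, was low in all 6 of its chains. COL4A5 (chromosome X, 108439844 to 108697545) had 246 and 233 fragments, 1.15 and 1.14 FPKM, with a log2 ratio of -0.0014 (-0.27 to 0.26). COL4A6, its neighbour, had 75 and 46 fragments (-0.49, interval -1.19 to -0.08). COL4A2 had 96 and 122 fragments (0.32, interval 0.02 to 0.82), and COL4A1, which with COL4A2 makes the common trimer of nearly every basement membrane, had 0 and 1. COL4A3 had 2 and 15 fragments, a log2 ratio of 2.98 with nothing added and an interval from 0.88 to 6.16. With 0.1 added the same ratio was 0.80. COL4A4 had 3 and 7. An antisense gene over COL4A3, AC097662.1, had 29 and 16 fragments, and the strand setting of the counting is not given in the sources used here, so reads of the pair may not be separable.

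The genes of type IV lie in head-to-head pairs on chromosomes 13, 2 and X, and some other collagens also have a collagen gene within 1 Mb. Neighbours were at unlike levels in some of these pairs and at like levels in others. COL4A4 (3 and 7 fragments) and COL4A3 (2 and 15) were both near the floor, and COL6A1 and COL6A2 were both abundant. COL4A2 held 96 and 122 fragments beside 0 and 1 on COL4A1. On chromosome 21, COL6A1 had 29224 and 34536 fragments and COL6A2 40818 and 43058, while COL18A1, 468016 bases away, had 11 and 8. On chromosome 2, COL5A2 had 6959 and 6341 fragments and COL3A1, at a gap of 19149 bases, 42 and 42. A deposited gene value does not show where on a gene its fragments lie. The spans of COL4A1 and COL4A2 overlap by 1422 bases on opposite strands, and the file gives COL4A2 a length of 19293 bases, against 6446 for its canonical spliced transcript.

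**Figure D4:**
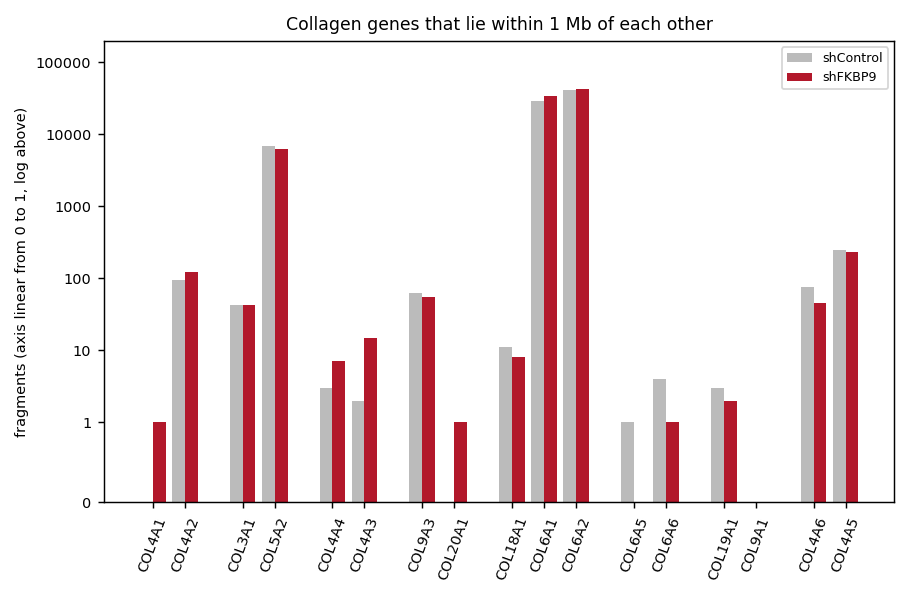
Fragments in shControl (grey) and shFKBP9 (red) for collagen genes within 1 Mb of another collagen gene, grouped by locus; the axis is linear from 0 to 1 and logarithmic above. COL4A1 has 0 and 1 fragments beside 96 and 122 on COL4A2, and COL18A1 11 and 8 beside 29224 and 34536 on COL6A1 and 40818 and 43058 on COL6A2.

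The RefSeq start sites of COL4A1 and COL4A2 (GRCh38.p14, the assembly hg38 stands for) are separated by 126 bases, shown here because by those starts this short stretch lies before both the gene with 0 and 1 fragments and the one with 96 and 122. In the gene spans behind those fragments, COL4A2 (110305812 to 110513209) covers the stretch and COL4A1 reaches into it, to 110307233. Beside the shared stretch are the 250 bases before the start of COL6A2 and of COL7A1, the most abundant beaded filament and basement membrane zone genes with an entry in that table, and of COL27A1. Capitals mark the CCAAT box, TATAAA and the GC box GGGCGG on either strand, and all are written 5′ to 3′ on the strand of the gene, COL4A2 for the shared stretch. The positions are chr13:110307158-110307283 (plus), chr21:46097862-46098111 (plus), chr3:48595330-48595579 (minus) and chr9:114155287-114155536 (plus).
COL4A1/COL4A2: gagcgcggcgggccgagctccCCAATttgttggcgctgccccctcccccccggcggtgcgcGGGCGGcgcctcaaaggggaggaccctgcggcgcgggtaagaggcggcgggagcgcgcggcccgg
COL6A2: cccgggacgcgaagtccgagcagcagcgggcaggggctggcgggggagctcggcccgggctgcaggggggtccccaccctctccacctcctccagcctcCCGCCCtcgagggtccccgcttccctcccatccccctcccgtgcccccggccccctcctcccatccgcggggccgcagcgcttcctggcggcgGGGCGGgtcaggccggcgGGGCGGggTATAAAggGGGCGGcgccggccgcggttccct
COL7A1: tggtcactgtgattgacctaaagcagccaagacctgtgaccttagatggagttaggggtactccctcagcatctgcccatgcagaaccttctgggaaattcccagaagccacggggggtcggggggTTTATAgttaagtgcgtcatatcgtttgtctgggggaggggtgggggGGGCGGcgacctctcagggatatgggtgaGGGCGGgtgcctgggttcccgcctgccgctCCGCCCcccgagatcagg
COL27A1: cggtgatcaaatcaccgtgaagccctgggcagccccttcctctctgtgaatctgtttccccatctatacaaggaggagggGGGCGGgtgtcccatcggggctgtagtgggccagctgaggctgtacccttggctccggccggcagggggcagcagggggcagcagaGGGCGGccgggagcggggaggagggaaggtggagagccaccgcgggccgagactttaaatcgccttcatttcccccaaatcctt
The shared stretch is 80.2% G and C and holds 1 CCAAT and 1 GGGCGG. COL6A2 holds 4 GGGCGG and 1 TATAAA, COL7A1 3 and 1, and COL27A1 2 and 0. Windows of 300 bases from 250 before to 50 after the start were given for 32 of the 44 genes, with 44 windows in all. GGGCGG lay in 54.5% of these and in 44.95% of all 35116 windows, CCAAT in 31.8% and 34.6%, and TATAAA in 18.2% and 11.5%. The windows also differed in base composition, with a median of 63.7% G and C in the collagen windows and 58.7% in all windows. The full ER stress element, a CCAAT box at a fixed distance from CCACG and a site through which the UPR is known to act, lay in 0 of the 44 and in 0.0769% of all windows. A match or its lack describes these letters only. COL1A1, COL1A2, COL2A1, COL3A1, COL5A2, COL6A1, COL6A5, COL8A1, COL9A3, COL14A1, COL20A1 and COL22A1 had no entry.

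The beaded filament genes included 3 abundant members that differed in direction. COL6A1 (ENSG00000142156, chromosome 21, 45981737 to 46005050) had 302 FPKM in shControl and 376 in shFKBP9, with a log2 ratio of 0.32 (0.30 to 0.34). COL6A2 (ENSG00000142173, chromosome 21, 46098097 to 46132849) had 419 and 466 FPKM, with a log2 ratio of 0.15 (0.13 to 0.17). COL6A3, the long chain that joins them in the type VI monomer (ENSG00000163359, chromosome 2, 237324003 to 237414375), had 169 and 154 FPKM, with a log2 ratio of -0.13 (-0.15 to -0.12). COL6A1 was at percentile 96.0 among genes with at least 1000 fragments and COL6A3 at 24.1. The other members, COL6A5 (1 and 0 fragments) and COL6A6 (4 and 1), were at the floor.

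Chains of 1 trimer can be compared with each other inside a library, per length. Type I collagen is known to hold 2 chains of COL1A1 to 1 of COL1A2, and the FPKM ratio of COL1A1 to COL1A2 was 1.87 (95% counting interval 1.85 to 1.88) in shControl and 1.78 (1.77 to 1.80) in shFKBP9. COL5A1 to COL5A2, also 2 to 1 in the common form of type V, was 2.58 (2.51 to 2.65) and 2.93 (2.85 to 3.01). The type VI monomer takes 1 chain of each kind, and COL6A1 to COL6A2 was 0.722 (0.711 to 0.733) and 0.809 (0.797 to 0.820), while COL6A3 to COL6A2 was 0.405 (0.400 to 0.410) and 0.332 (0.327 to 0.336). In each of the 4 pairs the intervals of the libraries did not overlap, the ratio being lower in shFKBP9 for COL1A1 to COL1A2 and COL6A3 to COL6A2 and higher for the others. These intervals cover counting error only and have no replicate behind them. At this depth they are narrow, and 77% of all genes with at least 10000 fragments had an interval that excluded a ratio of 1. The share among other pairs of genes was not computed.

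The level of these ratios depended on the length used. With fragments not scaled by length, COL6A3 to COL6A2 was 1.47 and 1.21, on the other side of 1, COL5A1 to COL5A2 3.87 and 4.40, COL1A1 to COL1A2 1.64 and 1.57, and COL6A1 to COL6A2 0.716 and 0.802. The gene length in the file over the spliced length of the canonical transcript had a median of 1.31 in the 44 genes, from 0.974 (COL19A1) to 2.99. With canonical lengths, chosen after the data were seen, COL1A1 to COL1A2 was 1.41 and 1.34, COL5A1 to COL5A2 3.13 and 3.56, COL6A1 to COL6A2 0.587 and 0.657, and COL6A3 to COL6A2 0.482 and 0.395. The direction between the libraries cannot change with length, since both libraries are divided by the same one. mRNA ratios say nothing of how many chains are assembled.

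FACIT collagens do not form fibrils but sit on the surface of those formed by others. COL16A1 (chromosome 1, 31652247 to 31704319) had 25.9 and 29.3 FPKM, with a log2 ratio of 0.18 (0.12 to 0.24). COL12A1, which binds type I fibrils in tendon and ligament (chromosome 6, 75084326 to 75206051), had 9.95 and 9.25 FPKM, with -0.10 (-0.19 to -0.02), an interval that included a ratio of 1 with median ratio scaling. COL9A2, a chain of the type IX collagen of cartilage, had 284 and 244 fragments and an interval that included a ratio of 1 (-0.40 to 0.11). Its partner COL9A3 had 63 and 55 and COL9A1 none, so COL9A1 and COL9A2 were not at like levels. Over COL9A3 the protein-coding gene TCFL5, on the opposite strand, had 529 and 478 fragments. With the strand setting not given, reads of that pair may not be separable. The other 6 members, COL14A1, COL19A1, COL20A1, COL21A1, COL22A1 and COL9A1, had at most 5 fragments in a library.

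The short chain collagens form hexagonal networks under endothelia and in cartilage, and 2 of their 3 members reached the minimum. COL8A1 (chromosome 3, 99638475 to 99799226) had 992 and 1182 fragments, 5.82 and 7.32 FPKM, with a log2 ratio of 0.32 (0.21 to 0.45). COL8A2 (chromosome 1, 36095236 to 36125220) had 105 and 73 fragments, 1.24 and 0.910 FPKM, with -0.41 and an interval from -0.90 to -0.0030 that only just excluded a ratio of 1 and included it with median ratio scaling. It passed the minimum only in the shControl library. COL10A1, of hypertrophic cartilage, had 7 and 8 fragments. Of the transmembrane collagens, COL13A1, found at cell adhesions and the neuromuscular junction (chromosome 10, 69801867 to 69964275), had 236 and 302 fragments, 2.21 and 2.99 FPKM, with a log2 ratio of 0.42 (0.18 to 0.68). COL17A1, of hemidesmosomes, had 12 and 10, COL25A1 4 and 0, and COL23A1 none. COL26A1 (1 and 1) and COL28A1 (1 and 2) completed the family.

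Genes that modify, export, cleave, cross-link or bind collagen were listed in 7 groups of 71 genes in all, and 53 of them reached 1 FPKM. None was past 2-fold, the counting interval was above a ratio of 1 for 26 and below it for 16, and the median log2 ratio was 0.10. These genes were mostly abundant, 47 of the 53 having at least 1000 fragments, so the shares to read the counts of this and the next paragraphs against are 53.5% of all genes with that many fragments (37.9%, or 17.2% above and 20.8% below, of all genes at the minimum) and, past 2-fold, 0.406% of protein-coding genes (4.21% of all genes). With median ratio scaling the counts were 29 above and 13 below, and with TPM scaling 24 and 17. Of the 16 hydroxylation and folding genes above the minimum, 5 intervals were above and 8 below, with 15 of the genes at 1000 fragments or more, and with median ratio scaling 6 were above and 6 below. The highest was P3H2, a prolyl 3-hydroxylase, at 3.35 and 4.86 FPKM (0.52, interval 0.33 to 0.74), and the lowest P3H3 at 23.1 and 19.7 (-0.23, -0.33 to -0.14). SERPINH1, the collagen chaperone HSP47, was at 114 and 111 FPKM (-0.04, -0.08 to -0.0032, a call lost with median ratio scaling), and FKBP10, an ER prolyl isomerase of procollagen, at 86.0 and 88.1 (0.03, -0.01 to 0.08, with an interval above a ratio of 1 under that scaling). Of the other prolyl isomerases of the group, FKBP14 was at 5.48 and 6.34 FPKM (0.21, 0.04 to 0.39) and PPIB at 109 and 110 (0.01, -0.06 to 0.08). Of the 10 export genes, 6 intervals were above and 2 below, from PREB (-0.24) to MIA2 (0.34). The number above was 7 with median ratio scaling, which added SAR1B, and 5 with TPM scaling, which removed SEC23A.

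Among the 6 propeptide cleavage genes above the minimum, ADAMTS14 was highest, with 103 and 160 fragments (0.66, interval 0.35 to 1.08), and BMP1, the C-proteinase, lowest at 35.97 and 30.8 FPKM (-0.22, -0.28 to -0.16). Of the cross-linking lysyl oxidases, LOXL3 was highest (0.37) and LOXL2, the most abundant at 318 and 296 FPKM, lowest (-0.10). Of the collagen receptors, 4 of the 6 above the minimum had intervals above a ratio of 1 and none below, where 4 of the 6 had at least 1000 fragments and 53.5% of all such genes had one in either direction. The highest was DDR2, a receptor tyrosine kinase for fibrillar collagen, at 11.9 and 15.6 FPKM (0.39, 0.32 to 0.47), and the lowest ITGA10 at 2.33 and 2.04 (-0.19, -0.46 to 0.07).

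The fibril partners had intervals above a ratio of 1 for 5 of 7 and below it for none, where all 7 had at least 1000 fragments and 53.5% of such genes had one in either direction. THBS1, a matrix glycoprotein, went from 437 fragments in shControl to 813 in shFKBP9 (0.95, 0.80 to 1.14), and LUM, the proteoglycan lumican that spaces fibrils, from 1531 to 2800 (0.95, 0.86 to 1.04). The lowest was THBS2 at -0.07 (-0.24 to 0.09). The 4 basement membrane partners above the minimum all had intervals below a ratio of 1 (3 of 4 with median ratio scaling, without LAMC1), again with at least 1000 fragments each. HSPG2, the core protein perlecan, was lowest at 12.1 and 9.26 FPKM (-0.38, -0.45 to -0.31) and LAMC1 nearest to 0 (-0.03, -0.06 to -0.0003).

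LUM and DCN were also on the list of fibroblast and mural markers. Of its 8 genes, 6 reached 1 FPKM, 5 with intervals above a ratio of 1 and 1 below (5 of the 6 had at least 1000 fragments, and 53.5% of all such genes had one in either direction). The summed level of the list was 91.2 FPKM in shControl and 141 in shFKBP9. FAP was at 5.64 and 10.2 FPKM and ACTA2 at 34.0 and 50.4, while PDGFRA was at 1.46 and 0.976 and THY1 had 3 and 1 fragments. PDGFRA, the 1 with an interval below, passed the minimum only in the shControl library. The endothelial list held 355 and 304 fragments, nearly all on KDR (336 and 276), and the blood list 16 and 11, with PTPRC at 0 in both. The part of other cells in the collagen values was not tested, and in bulk RNA more cells of a kind and more RNA per cell cannot be told apart.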

How the data were processed

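Total RNA of 1 shControl and 1 shFKBP9 library of SF-539 cells was sequenced. Per the methods and the submitters' processing notes, the authors aligned cleaned paired-end reads to hg38 with HISAT2 2.0.5, counted them per gene with featureCounts 1.5.0-p3 and deposited FPKM values with gene positions, lengths and biotypes. The annotation release and strand setting are not given in the sources used here. The deposited gene lengths, in bases, are another kind of value and were taken as given.

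Fragments were recovered as FPKM times gene length over the smallest step of each library (tolerance 1e-06). Without replicates no test between conditions was made. Genes that reached 1 FPKM in a library were counted as past 2-fold on the log2(FPKM + 0.1) scale, which understates ratios of low genes, or by an interval of the fragments that excluded a ratio of 1. Alternatives were 1 or 0.01 added, median ratio and TPM scaling, other minimums and an exact binomial test. The members, classes and gene lists, and the genes named from them (all members, and per list those past 2-fold or with the extreme ratios), were chosen with earlier results of these data known. SERPINH1, FKBP10, FKBP14, PPIB, LUM and the markers and collagen-domain genes named fall outside that rule and were picked with their values in view. Coding exons and canonical transcripts came from GENCODE release 44, and the spans of 11 of 44 members were the same there as in the file. Fragment recovery, intervals and 2-fold counts were tested on simulated data. Scripts ran in Python 3.11.15 (numpy 2.4.6, scipy 1.17.1, pandas 2.3.3), and matplotlib 3.10.9 drew the figures.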

Additional observations from a re-analysis of the deposited data

How the results depend on the processing

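No collagen gene at the minimum in use was past 2-fold under any alternative run, and the number of intervals above a ratio of 1 was between 9 and 13. The number below it was 5 as reported, 6 with no minimum, 4 with 1 FPKM in both libraries and 2 both with median ratio scaling and in the exact binomial test with Benjamini-Hochberg adjustment, a comparison of these libraries alone, and the cause was not tested. Scaling to the fragment total, chosen after seeing the data, gave 10 above and 5 below. The scalings of the production and marker lists were also tried after the data were seen. The median log2 ratio of 0.13 became 0.013 with no minimum, where genes with few or no fragments enter. The log2 ratio of summed FPKM was 0.14 with median ratio scaling, 0.10 with TPM scaling and 0.15 without COL1A1 for all collagens, 0.11, 0.078 and 0.12 for the fibrillar class, and 0.18 and 0.14 with the scalings for the beaded filaments. For the basement membrane zone it was 0.28 without COL7A1. The FACIT, short chain and transmembrane sums turned from above to below 0 without their most abundant member, at -0.11, -0.35 and -0.26 with 0.1 added. The transmembrane value then rests on COL17A1 (12 and 10 fragments), COL25A1 (4 and 0) and COL23A1 (none), and was -0.53 with nothing added. Among 23 genes, 1 changed sign with TPM scaling (COL5A3) and 1 with median ratio scaling (COL4A5), both with ratios near 0. Scaling also took ratios of abundant chains outside their narrow counting intervals. COL1A1 was at 0.095 with median ratio and 0.060 with TPM scaling, and COL1A2 at 0.161 and 0.126. COL6A3 was at -0.151 with TPM scaling. With 1 added in place of 0.1, ratios of low genes shrank, COL11A1 to 0.15 (1.09 with 0.01 added), COL4A2 from 0.32 to 0.10, COL4A6 to -0.17, COL15A1 from 0.66 to 0.39 and COL8A2 from -0.41 to -0.23. The factor between the libraries was 0.02 or less on the log2 scale in either scaling, but the 0.1 added weighs less after TPM scaling, and low genes moved by more, COL11A1 from 0.69 to 0.96 and COL4A6 from -0.49 to -0.60. No paired analysis was possible because there was 1 library per condition. Depth limits the 21 genes with fewer than 50 fragments in both libraries together.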

Other observations

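Proteins outside the family also carry a collagen domain, and 31 genes were listed for this after the collagen values had been seen. The list includes ACHE, which is not known to carry such a domain. Values are given for shControl first. Of these genes, 12 had no fragment in either library and 5 reached 1 FPKM. CTHRC1, a secreted protein known from remodelling matrix, had 168 and 274 fragments (0.77 on the log2 scale, 95% counting interval 0.50 to 1.07). C1QTNF6 had 723 and 530 (-0.36, -0.54 to -0.21). SCARA3, a scavenger receptor of class A, had 578 and 636 (0.21, 0.05 to 0.38), and the intervals of C1QTNF1 (2826 and 2818) and EMILIN2 (2909 and 2713) included a ratio of 1, that of C1QTNF1 lying above it with median ratio scaling. The collectins COLEC10 and COLEC11, the surfactant proteins SFTPA1 and SFTPD and the complement chains C1QA and C1QC had none.

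COL5A1-AS1, an antisense gene within COL5A1, had 18 fragments in shControl and 9 in shFKBP9, beside 26942 and 27919 on COL5A1. The antisense gene AC002074.1 over COL1A2 had 19 and 30, and AC114488.2 over COL16A1 24 and 18. An annotated gene on the opposite strand lay over 20 of the 44 collagen genes and over 6 of the 17 at or above 1 FPKM.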
